A study of Mus musculus with 12 samples.

Results

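The proteasome genes were measured in RNA-seq counts of sorted splenic regulatory T (Treg) cells of 3 genotypes. Members were the rows of the count table whose symbol begins with Psma to Psmg and a number, with pseudogene symbols left out, which gave 50 of 25189 genes. They held 7 genes of the core alpha ring, 7 of the constitutive beta ring, 3 immunoproteasome beta subunits, 6 ATPases and 11 other subunits of the regulatory particle, 3 assembly factors of that particle, 5 activator genes, 1 inhibitor, 4 assembly factors of the core and 2 tissue-restricted core subunits. Psmc3ip also matched the rule, although it encodes a factor of meiotic recombination and not a proteasome subunit.

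The double-deficient cells came from Foxp3∆EGFPiCre/+Rictor∆/∆R26YFP mice and lacked working Foxp3 and Rictor, the defining subunit of mTOR complex 2. The Foxp3-deficient cells carried the Foxp3∆EGFPiCre allele with Rictor intact, and the WT cells carried a working Foxp3 allele marked by RFP. Per the labels, Foxp3∆EGFPiCre/RFPR26YFP mice were the other line used, and the samples themselves are not tied to mice. All mice were 4-week-old females, cells were sorted from spleen in 2 rounds as CD4+RFP+ or CD4+YFP+, and each group had 4 libraries. Foxp3 is X-linked, so these heterozygous females also hold Treg cells with working Foxp3, which limits them as a model of Foxp3 loss. The iCre recombinase is placed in the Foxp3 locus, and, by the labels, reporter colour and genotype cannot be told apart. Replicates are given in the order 2, 3, 4, 5 for double-deficient and 1, 3, 4, 5 for Foxp3-deficient and WT libraries.

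The proteasome is the protease complex that degrades ubiquitin-tagged proteins. Its core is a barrel of alpha and beta rings, with the proteolytic sites in the beta rings, and regulatory caps with ATPases unfold substrates and feed them into the barrel. In lymphocytes, and under interferon elsewhere, the catalytic beta subunits Psmb5, Psmb6 and Psmb7 are partly replaced by Psmb8, Psmb9 and Psmb10, which form the immunoproteasome and favour peptides that fit MHC class I.

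Of the 50 genes, 48 had enough reads to be tested among 13196 genes in all. Psma8, the testis alternate of an alpha subunit, had 0 to 7 reads per library, and Psmb11, the beta subunit of cortical thymic epithelium, also had 0 to 7. Libraries held 15769737 to 26114044 reads in genes. Values are CPM, read counts scaled to a common library size with TMM factors.

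Library Foxp3-deficient 1 stood apart for the proteasome genes, as it was the lowest of the 12 libraries for 39 of the 48 tested members. A double-deficient library was the highest for 34 members. Summed over all members, the double-deficient libraries reached 6699 to 7490 CPM, against 4681 to 6446 CPM in Foxp3-deficient and 5956 to 6443 CPM in WT libraries. Read quality measures moved with the groups too. Reads without a unique alignment made up 31.1 to 33.1% of the total in double-deficient, 23.0 to 29.5% in Foxp3-deficient and 25.9 to 28.5% in WT libraries. Reads outside genes made up 4.63 to 5.47% in double-deficient, 6.22 to 9.27% in Foxp3-deficient and 7.52 to 8.75% in WT libraries. The 8 B cell markers summed to 776 to 944 CPM in double-deficient, 673 to 836 CPM in Foxp3-deficient and 1266 to 1495 CPM in WT libraries. Nearly all of that was Ighm. The B cell surface marker Ms4a1 had 33 reads over the double-deficient, 0 over the Foxp3-deficient and 4 over the WT libraries. The 4 plasma cell markers summed to 188 to 215 CPM in double-deficient, 161 to 193 in Foxp3-deficient and 204 to 221 in WT libraries. Xbp1, most of that sum, averaged 184, 175 and 210 CPM in the same order of groups. Jchain averaged 11.6, 0.90 and 1.27 CPM in that order, and Sdc1 2.19, 1.01 and 0.65 CPM. The part of these measures in the results below was not tested. Foxp3 itself averaged 102 ± 13.7 CPM in double-deficient, 118 ± 22.8 CPM in Foxp3-deficient and 633 ± 75.8 CPM in WT cells (SD, n = 4 each). Rictor averaged 141 ± 12.6 CPM in double-deficient, 189 ± 31.2 CPM in Foxp3-deficient and 148 ± 14.4 CPM in WT cells, from reads over the whole gene, which do not check the deletion.

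Divided by the length of the principal transcript, the highest members over all 12 libraries were the activator Psme1 at 252 CPM per kilobase, Psma7 at 230.2, Psmb8 at 217, the ubiquitin receptor Psmd4 at 192 and the ATPase Psmc3 at 175. This order depends on the length used: Psma7 has 914 bases in the principal transcript and 3071 over all its exons, and Psme1 has 1112 and 2209. Psmb8 stood above its constitutive partner Psmb5, which had 34.0 CPM per kilobase. The immunoproteasome genes Psmb9 and Psmb10 had 156 and 138 CPM per kilobase, and their partners Psmb6 and Psmb7 had 158 and 39.5. The lowest tested subunit gene was the activator Psme4 at 5.50 CPM per kilobase. Some levels are uncertain because reads can fit several genes: of the 50-base stretches of the principal transcript, 57.1% for Psmb5, 55.8% for Psmb3, 55.4% for Psma5 and 59.3% for Psme2 also occur in transcripts of other annotated genes. Psme2b, a near-copy of Psme2, shares 68.7% of its stretches with Psme2.

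The promoters of 6 members are shown because these genes mark the behaviours described below: the constitutive catalytic subunits Psmb5 and Psmb6, their immunoproteasome counterparts Psmb8 and Psmb9, the alpha subunit Psma1 with a high fold change and Psme4, which went the other way. Each stretch runs from 250 bases before to 50 after the RefSeq start on GRCm38.p6, with matches to 4 searched motifs in capitals. The positions are chr14:54617946-54618245 on the minus strand for Psmb5, chr11:70525107-70525406 on the plus strand for Psmb6, chr17:34197945-34198244 on the plus strand for Psmb8, chr17:34187281-34187580 on the minus strand for Psmb9, chr7:114276067-114276366 on the minus strand for Psma1 and chr11:30771525-30771824 on the plus strand for Psme4.
Psmb5: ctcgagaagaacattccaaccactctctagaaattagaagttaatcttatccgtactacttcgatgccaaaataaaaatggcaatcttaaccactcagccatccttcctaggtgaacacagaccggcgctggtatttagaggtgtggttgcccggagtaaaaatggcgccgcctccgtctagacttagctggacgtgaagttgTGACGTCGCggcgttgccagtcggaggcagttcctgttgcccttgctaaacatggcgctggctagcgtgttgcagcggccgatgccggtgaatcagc
Psmb6: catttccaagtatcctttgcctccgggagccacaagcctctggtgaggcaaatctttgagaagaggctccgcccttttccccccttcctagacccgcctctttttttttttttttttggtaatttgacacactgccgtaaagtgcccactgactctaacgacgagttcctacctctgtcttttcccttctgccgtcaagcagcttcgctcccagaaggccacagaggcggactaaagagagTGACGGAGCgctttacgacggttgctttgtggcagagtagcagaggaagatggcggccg
Psmb8: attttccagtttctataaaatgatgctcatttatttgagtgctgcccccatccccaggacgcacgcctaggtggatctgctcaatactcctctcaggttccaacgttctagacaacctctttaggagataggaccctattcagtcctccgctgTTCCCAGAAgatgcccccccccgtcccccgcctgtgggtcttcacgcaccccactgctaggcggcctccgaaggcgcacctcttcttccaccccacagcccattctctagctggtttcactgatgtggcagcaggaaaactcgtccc
Psmb9: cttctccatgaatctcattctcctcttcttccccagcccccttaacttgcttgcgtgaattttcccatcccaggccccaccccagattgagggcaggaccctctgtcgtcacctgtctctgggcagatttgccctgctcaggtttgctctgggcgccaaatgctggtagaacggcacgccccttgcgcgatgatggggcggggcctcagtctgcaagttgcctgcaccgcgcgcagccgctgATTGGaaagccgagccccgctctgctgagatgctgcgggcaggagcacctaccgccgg
Psma1: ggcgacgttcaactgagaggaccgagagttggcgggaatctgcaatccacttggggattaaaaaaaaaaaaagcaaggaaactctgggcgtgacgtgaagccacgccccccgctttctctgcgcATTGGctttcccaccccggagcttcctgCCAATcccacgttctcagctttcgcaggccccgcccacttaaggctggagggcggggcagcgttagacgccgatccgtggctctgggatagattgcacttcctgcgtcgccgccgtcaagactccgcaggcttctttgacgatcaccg
Psme4: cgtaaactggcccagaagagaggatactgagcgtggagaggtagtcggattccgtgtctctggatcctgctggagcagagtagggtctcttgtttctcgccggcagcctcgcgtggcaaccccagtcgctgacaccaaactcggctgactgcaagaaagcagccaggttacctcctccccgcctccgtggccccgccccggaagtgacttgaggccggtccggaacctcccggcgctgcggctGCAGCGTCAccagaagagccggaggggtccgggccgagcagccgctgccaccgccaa
In Psmb5 and Psmb6 the capitals mark the core of the antioxidant response element, TGACNNNGC, which Nfe2l1 and Nfe2l2 can bind. It begins 47 bases before the start in Psmb5 and 9 bases before it in Psmb6, and Psme4 holds it in reverse complement 7 bases before the start. Psmb8 holds a match to the gamma-activated site TTCNNNGAA 97 bases before the start. Psmb9 and Psma1 hold the CCAAT box, 8 bases before the start in Psmb9 and 126 and 98 bases before it in Psma1. None of these matches overlap.

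Searched on both strands, TGACNNNGC was found in 6 of the 42 members with a RefSeq promoter (14.3%), against 14% of 27025 genes. Those members were Psmb5, Psmb6, Psmc6, Psmd9, Psmd12 and Psme4. CCAAT was found in 15 of 42 members (35.7%), against 41.1% of all genes, and TTCNNNGAA in 3 of 42 (7.14%), against 9.55%. The interferon-stimulated response element core, a pair of GAAA with 2 bases between them, was found in 5 of 42 members (11.9%), Psmb3, Psmd4, Psmd9, Psme1 and Psmg4, against 3.99% of all genes. These are matches of letters in a fixed window and not measured binding.

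**Figure D1:**
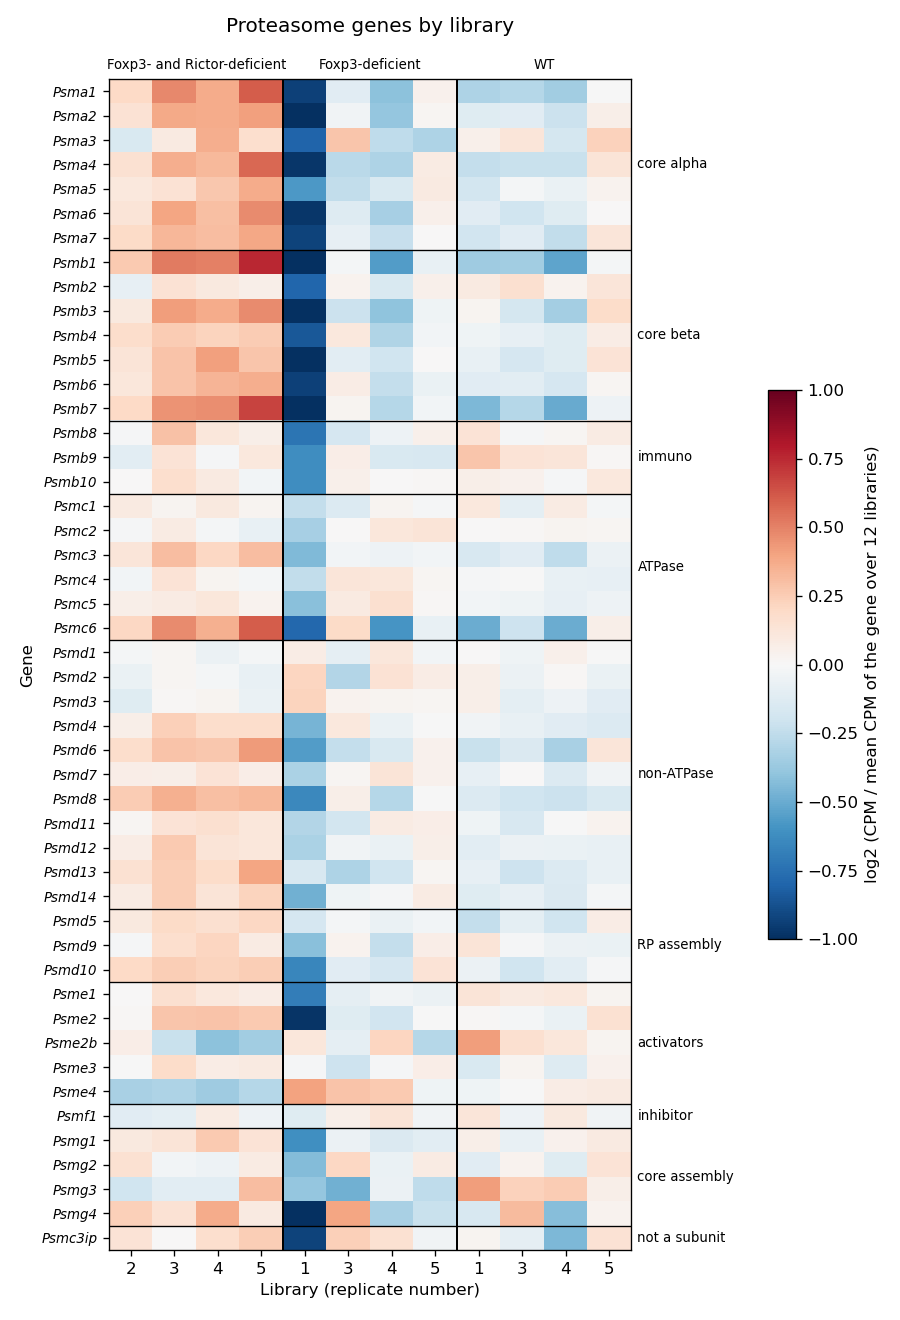
Each cell shows the log2 ratio of a gene's CPM in one library to its mean over 12 libraries, for the 48 tested genes by role, with colour cut off at −1 and 1. Core alpha and beta genes are above their means in nearly all double-deficient libraries, library Foxp3-deficient 1 is the lowest for 39 genes, and Psme4 runs the other way.

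The comparison of double-deficient with Foxp3-deficient cells sets loss of Rictor beside intact Rictor in cells without working Foxp3. By the labels, the mouse line and its other Foxp3 allele differ too, so their part cannot be told apart from that of Rictor. Of the 48 tested members, 22 were higher in double-deficient cells and 1, Psme4, was lower (edgeR, adjusted p under 0.05 over all 13196 genes). That was 45.8% of members called higher, against 13.9% of all genes called higher and 13.3% called lower. The median log2 fold change was 0.28 over the members and −0.025 over all genes, and 42 of 48 members lay above 0. The higher genes were mostly those of the core barrel: 6 of 7 alpha genes and 6 of 7 constitutive beta genes were higher, with medians of 0.63 and 0.55. With each library's trend against transcript length and GC content removed these were 4 of 7 and 4 of 7, with medians of 0.33 and 0.31, and the median over all members was 0.16. The edgeR test called 0 of 3 immunoproteasome genes, of which 1 had an unadjusted p under 0.05, and DESeq2 called 0 (16.3% of all genes higher and 15% lower). The double-deficient libraries lay wholly above the Foxp3-deficient ones for 25 members, a pattern found in 13.7% of all genes, and wholly below them for Psme4, found in 11.3%. Less RNA per cell and fewer cells of a type cannot be told apart in these bulk libraries.

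The count of members depended on single libraries and on the trend with transcript length and GC content, which were removed together. It was 14 without double-deficient 4, 12 without double-deficient 5 and 17 without Foxp3-deficient 1, where 10.6%, 8.24% and 10.4% of all genes were higher. With the trend removed, 13 members were higher and Psme4 was lower, against 10.2% of all genes higher and 8.64% lower. Called with every single library left out and also with the trend removed were 11 members (22.9%, against 6.59% of all genes): Psma1, Psma4, Psma6, Psma7, Psmb1, Psmb3, Psmb7, Psmc3, Psmd6, Psmd8 and Psmd13. With the trend removed and Foxp3-deficient 1 left out, 5 members were higher (6.92% of all genes), and without Foxp3-deficient 4 they were 4 (6.24%).

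**Figure D2:**
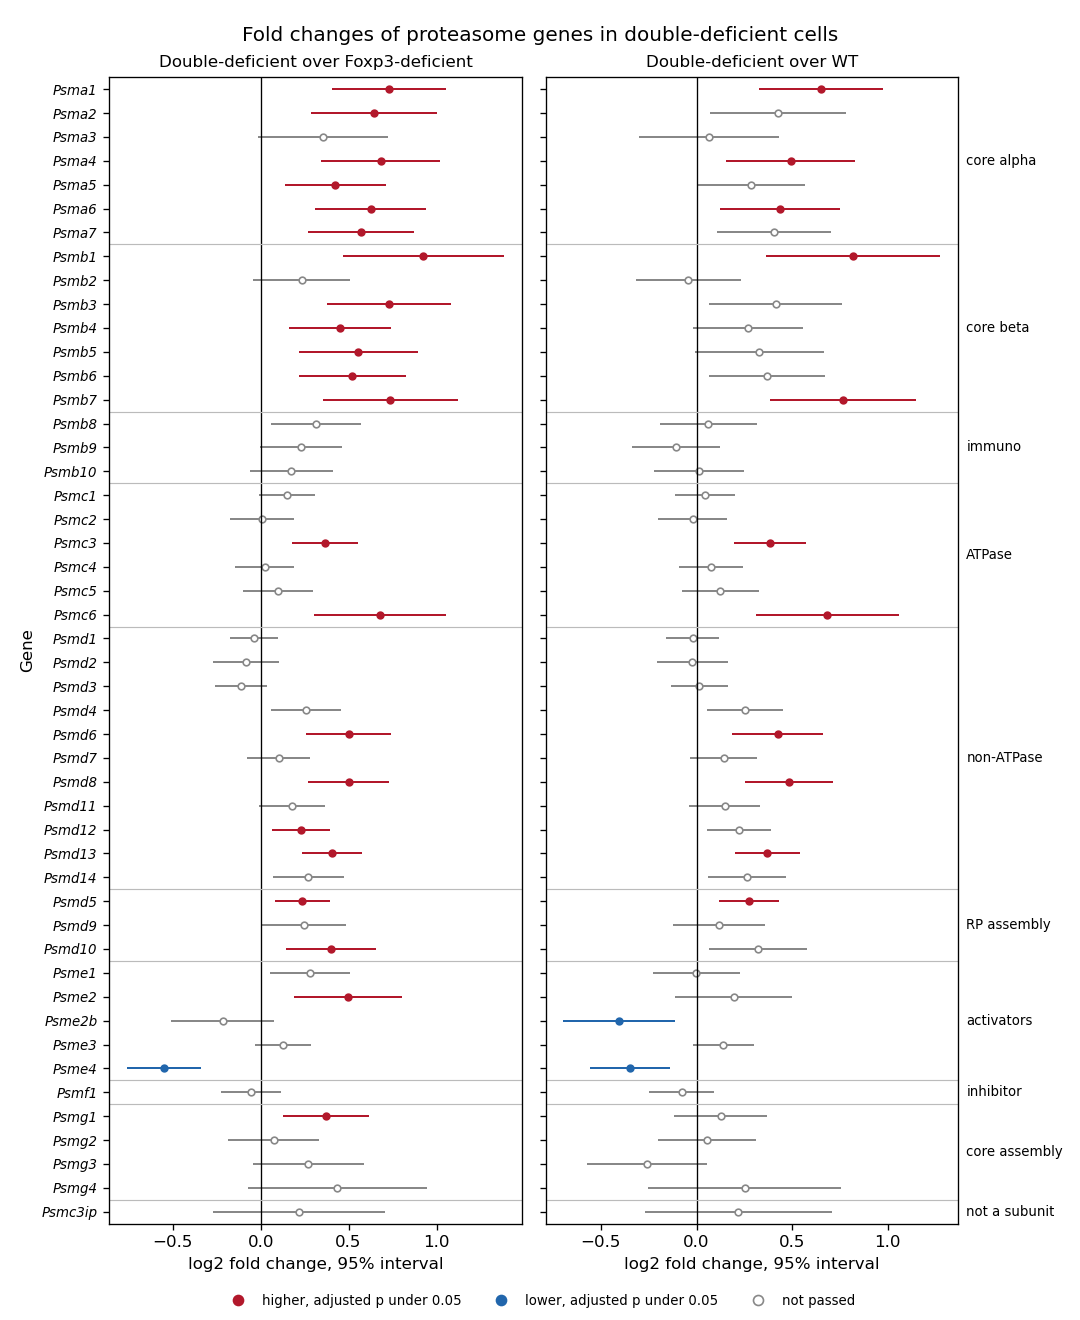
Points are log2 fold changes of the 48 tested genes with 95% intervals, double-deficient over Foxp3-deficient cells on the left and over WT cells on the right, filled where adjusted p was under 0.05. On the left 22 genes are higher and Psme4 is lower, and on the right 11 are higher and Psme2b and Psme4 are lower.

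In the alpha ring, which gates entry to the barrel, Psma1 had 239.7, 291, 269 and 316 CPM in double-deficient libraries, against 109, 193, 157 and 215 CPM in Foxp3-deficient and 168, 171, 163 and 208 CPM in WT libraries. All 4 double-deficient libraries lay above all the others. The log2 fold change over Foxp3-deficient cells was 0.73 ± 0.16 (SE, adjusted p = 0.00589), a 1.66-fold difference, and 0.37 with the trend removed (adjusted p = 0.0167). Psma7, the alpha gene with the highest CPM per kilobase, had 240.0, 265, 260.0 and 275 CPM in double-deficient, 111, 198, 179 and 211 CPM in Foxp3-deficient and 185, 195, 177 and 229 CPM in WT libraries. Its double-deficient libraries also lay above all the others, with a log2 fold change of 0.57 ± 0.15 over Foxp3-deficient cells (adjusted p = 0.0134) and 0.29 with the trend removed (adjusted p = 0.0443). Psma4 had 119, 138, 134 and 159 CPM in double-deficient, 54.3, 88.5, 86.3 and 113 CPM in Foxp3-deficient and 90.5, 91.4, 91.5 and 117 CPM in WT libraries. The groups with and without Rictor did not overlap for Psma4, and its log2 fold change was 0.68 ± 0.17 (adjusted p = 0.0101), and 0.35 with the trend removed (adjusted p = 0.0369). Psma6 had 169.6, 204, 192 and 216 CPM in double-deficient, 79.0, 142, 124 and 161 CPM in Foxp3-deficient and 144, 135, 143 and 156 CPM in WT libraries. It too had no overlap between the groups with and without Rictor, with a log2 fold change of 0.63 ± 0.16 (adjusted p = 0.0109) and 0.33 with the trend removed (adjusted p = 0.0239). Psma2 and Psma5 were higher as well, by 0.65 and 0.43 on the log2 scale (adjusted p = 0.0179 and 0.0377). Psma5 lost its call without any one of 8 libraries, with an adjusted p of up to 0.0985, and both lost it with the trend removed, at 0.49 and 0.19 (adjusted p = 0.0767 and 0.254). Psma3 did not pass, at 0.35 ± 0.19 (adjusted p = 0.166), and passed only without Foxp3-deficient 3 (adjusted p = 0.0158).

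In the constitutive beta ring, Psmb1, a structural subunit without a proteolytic site, had the largest fold change of all tested members. It had 233, 279, 277 and 329 CPM in double-deficient, 77.3, 193, 133 and 186 CPM in Foxp3-deficient and 153, 153, 135 and 193 CPM in WT libraries. Every double-deficient library lay above the rest, and the log2 fold change over Foxp3-deficient cells was 0.93 ± 0.23 (adjusted p = 0.0126). Psmb3, also structural, had 42.1, 52.5, 50.9 and 54.6 CPM in double-deficient and 18.9, 33.9, 29.7 and 38.2 CPM in Foxp3-deficient libraries, which did not overlap, and 40.0, 34.7, 31.1 and 44.5 CPM in WT libraries, of which WT 5 lay above double-deficient 2. Its log2 fold change over Foxp3-deficient cells was 0.73 ± 0.18 (adjusted p = 0.00888) and 0.44 with the trend removed (adjusted p = 0.0243). Psmb4 was higher by 0.45 on the log2 scale (adjusted p = 0.0312), and missed the threshold without double-deficient 3, 4 or 5 or Foxp3-deficient 4 (adjusted p up to 0.078) and with the trend removed (0.22, adjusted p = 0.12). Psmb2 did not pass, at 0.23 ± 0.14 (adjusted p = 0.217).

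The 3 constitutive catalytic genes were all higher in double-deficient cells than in Foxp3-deficient ones. Psmb7, which carries the trypsin-like site, had 52.7, 62.4, 63.2 and 73.0 CPM in double-deficient, 21.4, 46.7, 37.6 and 45.0 CPM in Foxp3-deficient and 33.5, 37.7, 32.2 and 44.2 CPM in WT libraries. The lowest double-deficient library lay above the highest of both other groups, and the log2 fold change over Foxp3-deficient cells was 0.74 ± 0.19 (adjusted p = 0.0127). Part of the Psmb7 transcript is shared with the neighbouring Nek6 on the other strand, in 28.1% of its 50-base stretches. Psmb6, the caspase-like subunit, had 136, 154, 159.9 and 163 CPM in double-deficient, 66.2, 133, 107 and 121 CPM in Foxp3-deficient and 117, 118, 112 and 128 CPM in WT libraries. Its double-deficient libraries lay above all the others, with a log2 fold change of 0.52 ± 0.15 over Foxp3-deficient cells (adjusted p = 0.0213), which missed the threshold without double-deficient 5 (adjusted p = 0.0545). It was 0.26 with the trend removed (adjusted p = 0.0473). Psmb5, the chymotrypsin-like subunit, had 33.5, 37.2, 40.6 and 37.0 CPM in double-deficient, 15.2, 28.5, 26.7 and 30.6 CPM in Foxp3-deficient and 29.1, 27.2, 28.1 and 33.7 CPM in WT libraries. The double-deficient and Foxp3-deficient libraries did not overlap, while WT 5 reached above double-deficient 2. The log2 fold change over Foxp3-deficient cells was 0.55 ± 0.17 (adjusted p = 0.0262), not called without double-deficient 4 or 5 (adjusted p up to 0.0631) or with the trend removed (0.31, adjusted p = 0.0848).

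The immunoproteasome counterparts did not pass the test in this comparison. Psmb8, which takes the place of Psmb5, had 351, 433, 383 and 368 CPM in double-deficient, 214, 315, 342 and 367 CPM in Foxp3-deficient and 388, 351, 358 and 374 CPM in WT libraries. Foxp3-deficient 1, 3 and 4 lay below every double-deficient and WT library, and Foxp3-deficient 5 lay within their range. Psmb9, which takes the place of Psmb6, had 197, 232, 209.9 and 228 CPM in double-deficient, 137, 221, 189.7 and 189.5 CPM in Foxp3-deficient and 256, 233, 230.0 and 213 CPM in WT libraries. Psmb10, which takes the place of Psmb7, had 181, 203, 192 and 177 CPM in double-deficient, 117, 187, 181 and 182 CPM in Foxp3-deficient and 188, 186, 179 and 194 CPM in WT libraries. For Psmb10 the libraries other than Foxp3-deficient 1 all lay within 177 to 203 CPM. Over Foxp3-deficient cells the log2 fold changes were 0.31 ± 0.13 for Psmb8, 0.23 ± 0.12 for Psmb9 and 0.17 ± 0.12 for Psmb10 (adjusted p = 0.0796, 0.147 and 0.283). The 95% intervals were 0.062 to 0.56, 0.0046 to 0.46 and −0.056 to 0.40. They rest on a normal approximation and are narrower than the test would give. Whether these fold changes differ from that of Psmb6 was not tested. Psmb8 passed without Foxp3-deficient 5 (adjusted p = 0.0242) and Psmb9 without Foxp3-deficient 3 (adjusted p = 0.0325).

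**Figure D3:**
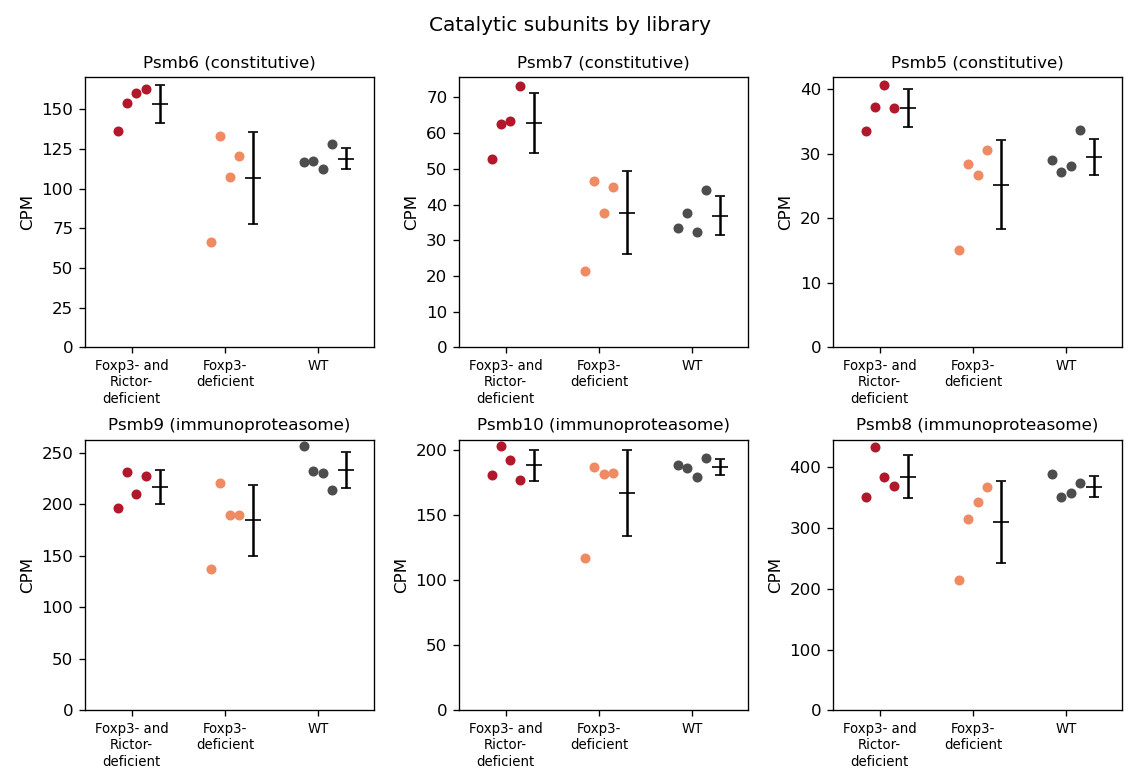
CPM of the constitutive catalytic genes (top) and of the immunoproteasome genes that replace them (bottom) in each library, with mean and SD at the right of each group. The constitutive genes are highest in the double-deficient group, and the immunoproteasome genes overlap between groups with Foxp3-deficient 1 the lowest.

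The share of immunoproteasome transcripts among the catalytic transcripts was lower in each double-deficient library than in any other library. On the CPM per kilobase scale, Psmb8, Psmb9 and Psmb10 made up 65.2% ± 1.87 of the 6 catalytic genes in double-deficient, 70.4% ± 2.40 in Foxp3-deficient and 71.7% ± 1.69 in WT libraries (mean ± SD, n = 4). The ranges were 63.2 to 67.3% in double-deficient, 67.7 to 73.2% in Foxp3-deficient and 69.4 to 73.4% in WT libraries, with no overlap between the double-deficient libraries and the others. Library Foxp3-deficient 1, the lowest for most members, was the highest of its group in this share. Psmb10 made up 72.6% ± 3.10 of the pair with Psmb7 in double-deficient, 80.0% ± 2.37 in Foxp3-deficient and 81.8% ± 1.75 in WT libraries. Psmb9 made up 45.5% ± 1.43 of the pair with Psmb6 in double-deficient, 51.0% ± 3.01 in Foxp3-deficient and 53.7% ± 2.91 in WT libraries. Psmb8 made up 85.1% ± 1.12 of the pair with Psmb5 in double-deficient, 87.3% ± 1.14 in Foxp3-deficient and 87.3% ± 0.908 in WT libraries. The ranges of this last pair overlapped. Since reads of Psmb5 also fit other genes, its level, this last share and the share of all 6 genes are uncertain. With union exonic lengths in place of principal transcripts, Psmb10 made up 85.7% in double-deficient, 90.1% in Foxp3-deficient and 91.1% in WT libraries. On that scale the Psmb9 share was 42.0% in double-deficient, 47.4% in Foxp3-deficient and 50.1% in WT libraries, so which pair differed more depended on the lengths used. The shares are a description without a test, and each library's trend with transcript length and GC content was not removed from them. The constitutive genes have the shorter transcripts, of 899, 798 and 1160 bases for Psmb5, Psmb6 and Psmb7. Those of Psmb8, Psmb9 and Psmb10 have 1628, 1352 and 1311 bases. The part of that trend in the shares was not tested.

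**Figure D4:**
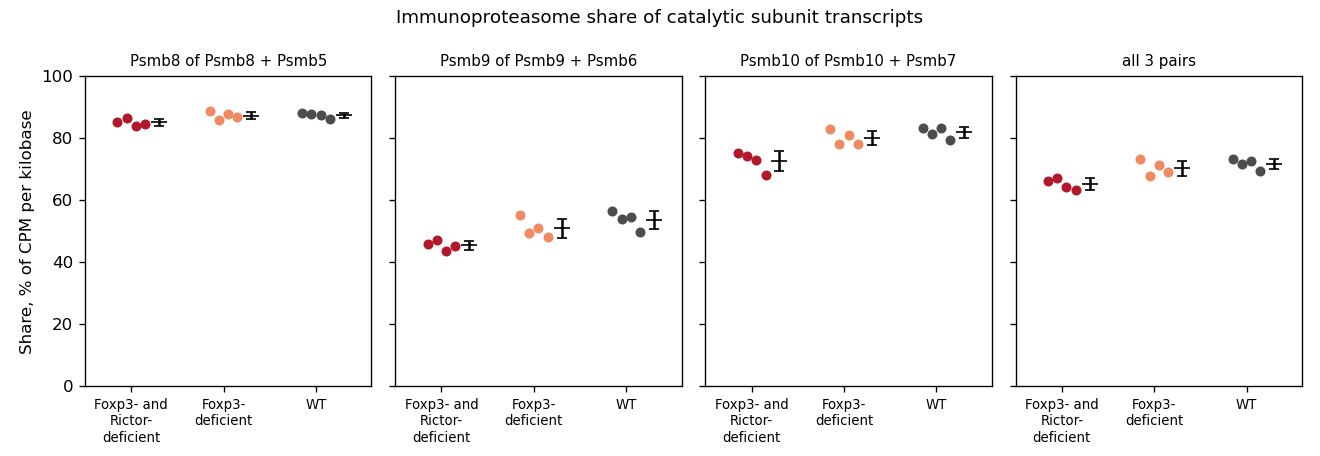
Share of each immunoproteasome gene in the sum with the constitutive gene it replaces, in percent of CPM per kilobase, and the same for all 6 genes together, per library with mean and SD. For all 6 genes the double-deficient libraries lie at 63.2 to 67.3%, below the 67.7 to 73.2% of Foxp3-deficient and the 69.4 to 73.4% of WT libraries.

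The ATPases form the ring of the regulatory particle that unfolds substrates, and 2 of 6 were higher in double-deficient cells than with Rictor intact. Psmc3 had 311, 354, 330.2 and 355 CPM in double-deficient, 210.3, 280.0, 276 and 281 CPM in Foxp3-deficient and 256, 264, 239 and 275 CPM in WT libraries. All double-deficient libraries lay above the other 8, with a log2 fold change of 0.37 ± 0.093 over Foxp3-deficient cells (adjusted p = 0.0109) and 0.25 with the trend removed (adjusted p = 0.029). Psmc6 had 149.7, 181, 166 and 197 CPM in double-deficient, 75.5, 149, 86.5 and 123 CPM in Foxp3-deficient and 92.1, 113, 91.9 and 135 CPM in WT libraries. The lowest double-deficient library exceeded Foxp3-deficient 3 by less than 1 CPM, and the Foxp3-deficient libraries themselves spread widely. Its log2 fold change over Foxp3-deficient cells was 0.68 ± 0.19 (adjusted p = 0.018), not called without double-deficient 5 or Foxp3-deficient 4 (adjusted p up to 0.055) or with the trend removed (adjusted p = 0.0665). Psmc1, Psmc2, Psmc4 and Psmc5 did not pass, with log2 fold changes of 0.15, 0.0062, 0.023 and 0.10.

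Of the 11 non-ATPase subunits, 4 were higher in double-deficient cells over Foxp3-deficient ones, all of them lid subunits: Psmd6, Psmd8, Psmd12 and Psmd13. Psmd13 had 151, 161, 154 and 179 CPM in double-deficient, 122, 109.9, 119 and 138 CPM in Foxp3-deficient and 129, 118, 124 and 129 CPM in WT libraries. The double-deficient libraries lay above all the others, and its adjusted p was the smallest among the higher members (0.40 ± 0.084 over Foxp3-deficient cells, adjusted p = 0.00373). Part of its transcript overlaps Sirt3 on the other strand. Psmd8 had 226, 242, 233 and 237 CPM in double-deficient, 121, 197, 156 and 189 CPM in Foxp3-deficient and 172, 165, 163 and 171 CPM in WT libraries. No double-deficient library overlapped the others, and the log2 fold change was 0.50 ± 0.12 (adjusted p = 0.00653). Psmd6 had 129.6, 140.3, 138 and 154 CPM in double-deficient, 78.2, 97.6, 103 and 118 CPM in Foxp3-deficient and 98.6, 104, 91.7 and 125 CPM in WT libraries. Here too the double-deficient libraries lay above the other 8, with a log2 fold change of 0.50 ± 0.12 (adjusted p = 0.00814) and 0.27 with the trend removed (adjusted p = 0.0468). Psmd12 stood at the threshold, at 0.23 ± 0.082 (adjusted p = 0.0497), and lost its call without any library other than Foxp3-deficient 3 or 5 (adjusted p up to 0.119) and with the trend removed (0.021, adjusted p = 0.848). The scaffold subunits Psmd1 and Psmd2 did not pass. Psmd2, the non-ATPase gene with the highest CPM, had 297, 316, 307 and 295 CPM in double-deficient, 362, 253, 343 and 327 CPM in Foxp3-deficient and 324, 299, 314 and 297 CPM in WT libraries, and these ranges overlapped (−0.082 ± 0.093 over Foxp3-deficient cells, adjusted p = 0.534). The deubiquitinase Psmd14 and the ubiquitin receptor Psmd4 missed the threshold, at 0.27 and 0.26 (adjusted p = 0.057 and 0.0626). Both passed without Foxp3-deficient 5 (and Psmd4 also without Foxp3-deficient 3), with adjusted p down to 0.0221 and 0.0173.

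Among the chaperones that assemble the ATPase ring, Psmd5 and Psmd10 were higher in double-deficient cells and Psmd9 did not pass. Psmd5 had 183, 196, 191 and 197 CPM in double-deficient, 152, 169, 163 and 167 CPM in Foxp3-deficient and 145, 160.1, 149 and 179.6 CPM in WT libraries. The double-deficient libraries lay above the other 8 by a narrow margin over WT 5. The log2 fold change over Foxp3-deficient cells was 0.24 ± 0.077 (adjusted p = 0.0341) for Psmd5 and 0.40 ± 0.13 (adjusted p = 0.0313) for Psmd10. Both calls were lost without double-deficient 3, 4 or 5 or Foxp3-deficient 1 or 4 (adjusted p up to 0.0776 and 0.066), and with the trend removed Psmd5 kept its call (adjusted p = 0.0207) while Psmd10 did not (0.05, adjusted p = 0.733).

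Activators bind the ends of the core barrel in place of the regulatory particle. Psme4, a nuclear activator with a very long transcript (6491 bases), was the only called member that was lower in double-deficient cells over Foxp3-deficient ones. It had 28.6, 28.9, 27.9 and 29.3 CPM in double-deficient, 47.1, 43.5, 42.7 and 34.6 CPM in Foxp3-deficient and 34.7, 35.6, 37.6 and 38.0 CPM in WT libraries. All 4 double-deficient libraries lay below the other 8. The log2 fold change over Foxp3-deficient cells was −0.55 ± 0.10 (adjusted p = 0.00209), called with every single library left out (adjusted p up to 0.0101) and with the trend removed (−0.41, adjusted p = 0.0127). Psme2, a subunit of the interferon-inducible activator, was higher by 0.49 (adjusted p = 0.0281), but not without double-deficient 3, 4 or 5 (adjusted p up to 0.0616) or with the trend removed (0.22, adjusted p = 0.121). Its partner Psme1 did not pass, at 0.28 (adjusted p = 0.076), and passed only without Foxp3-deficient 5 (adjusted p = 0.046). Psme3, the activator gene with the highest CPM, had 302, 343, 318 and 321 CPM in double-deficient, 299, 262, 299 and 316 CPM in Foxp3-deficient and 271, 307, 276 and 311 CPM in WT libraries. Its groups overlapped (0.13 ± 0.078 over Foxp3-deficient cells, adjusted p = 0.235). Psmf1, an inhibitor of the core in biochemical assays, had 70.7, 71.5, 80.9 and 73.7 CPM in double-deficient, 70.4, 79.7, 83.8 and 74.6 CPM in Foxp3-deficient and 83.2, 73.8, 81.9 and 74.6 CPM in WT libraries, and did not pass (−0.056 ± 0.084, adjusted p = 0.649).

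The chaperones of core assembly work as the pairs Psmg1 with Psmg2 and Psmg3 with Psmg4. Psmg1 was higher in double-deficient cells, over Foxp3-deficient ones, by 0.37 ± 0.12 (adjusted p = 0.0344), but not without double-deficient 3, 4 or 5 or Foxp3-deficient 1 or 4 (adjusted p up to 0.081) or with the trend removed (0.10, adjusted p = 0.468). Psmg2, the highest of the 4 in CPM, had 38.9, 34.4, 33.9 and 37.0 CPM in double-deficient, 25.9, 40.5, 33.5 and 37.1 CPM in Foxp3-deficient and 32.4, 35.8, 32.2 and 38.5 CPM in WT libraries, with overlapping groups (0.074 ± 0.13, adjusted p = 0.693). Psmg3 and Psmg4 did not pass, at 0.27 and 0.44, and Psmg4 passed only without Foxp3-deficient 3 (adjusted p = 0.0336). Psmc3ip, which is no subunit, averaged 4.42 ± 0.311 CPM in double-deficient, 3.8 ± 1.17 CPM in Foxp3-deficient and 3.8 ± 0.637 CPM in WT cells and did not pass.

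Double-deficient cells were next compared with WT cells, from which they differ in Foxp3, Rictor, the reporter sorted on and, by the labels, the mouse line. Of the 48 members, 11 were higher and 2 were lower in double-deficient cells, or 22.9% called higher and 4.17% called lower. Among all genes 15.8% were called higher and 16.8% lower. The median log2 fold change was 0.21 over the members and −0.026 over all genes, and with the trend removed 0.11 and 0.024. The higher members were the alpha genes Psma1, Psma4 and Psma6, the beta genes Psmb1 and Psmb7, the ATPases Psmc3 and Psmc6, the lid genes Psmd6, Psmd8 and Psmd13 and the chaperone Psmd5. Libraries did not overlap for 23 members higher in double-deficient cells, against 20.5% of all genes, and for 1 lower, against 19.2%. The immunoproteasome genes were not called, with 0 of 3 also at an unadjusted p under 0.05 and by DESeq2 (18% of all genes higher and 18.2% lower). This comparison and the one before share the double-deficient libraries, so their values are not independent.

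The largest log2 fold changes over WT were 0.82 ± 0.23 for Psmb1, 0.77 ± 0.19 for Psmb7, 0.68 ± 0.19 for Psmc6 and 0.65 ± 0.16 for Psma1 (adjusted p = 0.0168, 0.00737, 0.0132 and 0.00739). The smallest adjusted p belonged to Psmd13 at 0.37 ± 0.084 (adjusted p = 0.00397), then Psmd8 at 0.48 ± 0.12 and Psmc3 at 0.38 ± 0.093 (adjusted p = 0.0053 and 0.00585). Psmd5 and Psmd6 were higher by 0.28 and 0.42 (adjusted p = 0.0136 and 0.0138), and Psma4 and Psma6 by 0.49 and 0.44 (adjusted p = 0.0365 and 0.0451). Psma1, Psmb7, Psmc3, Psmc6, Psmd8 and Psmd13 were called with every single library left out and with the trend removed. They were 6 of the 48 tested members, a share near the 9.62% of all genes. The other 5 called members were each lost without WT 4, among other libraries for Psma4, Psma6 and Psmd5, with an adjusted p of up to 0.109 for Psma6. Psma1, Psma4 and Psma6 stood at 0.42, 0.29 and 0.29 with the trend removed, and Psma4 was no longer called (adjusted p = 0.0524). Without WT 4 the count was 6 of 48, a share near the 11.1% of all genes. It was 21 without Foxp3-deficient 1, which enters through the shared estimate of the spread (19.3% of all genes higher). With the trend removed, 12 members were higher (18.9% of all genes) and 1 was lower (13.2%).

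Psme4 and Psme2b were the lower members. Psme4 was lower by a log2 fold change of −0.35 ± 0.10 (adjusted p = 0.0182), and did not pass without double-deficient 4 or WT 4 (adjusted p up to 0.0541) or with the trend removed (−0.19, adjusted p = 0.173). Psme2b had 21.4, 17.4, 15.3 and 16.0 CPM in double-deficient, 22.0, 19.1, 23.6 and 16.8 CPM in Foxp3-deficient and 27.3, 22.8, 22.1 and 20.7 CPM in WT libraries. Its groups overlapped, and its reads cannot be told firmly from those of Psme2. The log2 fold change over WT was −0.40 ± 0.15 (adjusted p = 0.0461), lost without double-deficient 3, 4 or 5 or WT 1, 3 or 4 (adjusted p up to 0.137).

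Few of these genes passed the test where Foxp3 was lost and Rictor was intact. In Foxp3-deficient against WT cells edgeR called 0 members higher and 1 lower, where 6.99% of all genes were higher and 6.74% lower. At an unadjusted p under 0.05 the counts were 0 higher and 3 lower (13.1% and 12.6% of all genes), and DESeq2 called 0 and 2 (8.75% and 8.15%). The median log2 fold change was −0.078 over the members and 0.00045 over all genes, and without Foxp3-deficient 1 it was 0.011 over the members. The medians with the trend removed were 0.029 over the members and 0.054 over all genes. The lower gene was the core assembly chaperone Psmg3, with 8.28, 7.79, 10.4 and 9.10 CPM in Foxp3-deficient and 14.5, 12.7, 13 and 11.3 CPM in WT libraries. These did not overlap, with a log2 fold change of −0.53 ± 0.16 (adjusted p = 0.0349), lost without Foxp3-deficient 1, 3 or 5 or WT 1, 3 or 4 (adjusted p up to 0.0989) and with the trend removed (adjusted p = 0.115). Psme1, which was not called, also had no overlap, at 173 to 274 CPM in Foxp3-deficient and 285 to 306 CPM in WT libraries. Libraries wholly below WT were thus found for 2 members (4.17%), against 9.26% of all genes. In double-deficient libraries Psmg3 had 9.46, 10.1, 10.1 and 13.5 CPM. Psmb9 missed the threshold in edgeR, at −0.34 ± 0.12 (adjusted p = 0.0665), and DESeq2 called it lower (adjusted p = 0.0468). In edgeR it passed without Foxp3-deficient 3 (adjusted p = 0.0143) and with the trend removed (−0.24, adjusted p = 0.0383). For Psmb8 and Psmb10 the log2 fold changes were −0.25 ± 0.13 and −0.16 ± 0.12 (adjusted p = 0.236 and 0.436). For the catalytic Psmb5, Psmb6 and Psmb7 they were −0.23 ± 0.17, −0.15 ± 0.15 and 0.03 ± 0.19 (adjusted p = 0.459, 0.595 and 0.949).

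Most members have short transcripts, which the symbol rule did not use. The median length of the principal transcript was 1408.5 bases over the tested members and 2812 bases over all tested genes with a length, and 8 of the 48 members were longer than that. Across 13070 genes, the difference of double-deficient from Foxp3-deficient cells on the log2 scale had a Spearman rho of −0.345 with that length, and across the 48 members it was −0.402. After the trend with length and GC content was removed within each library, rho over the members was −0.080. These correlations run across genes of the same libraries, and genes are not independent replicates. Over WT, rho was −0.232 across all genes and −0.148 across the members, where it was 0.093 with the trend removed. For Foxp3-deficient over WT cells it was 0.132 across all genes and 0.562 across the members, where 0.345 remained with the trend removed. As single examples, the alpha genes Psma2 and Psma3 have transcripts of 2911 and 2846 bases and differed by 0.65 and 0.35. Psmb2 with 859 bases differed by 0.23. The part of length in these differences was not tested.

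**Figure D5:**
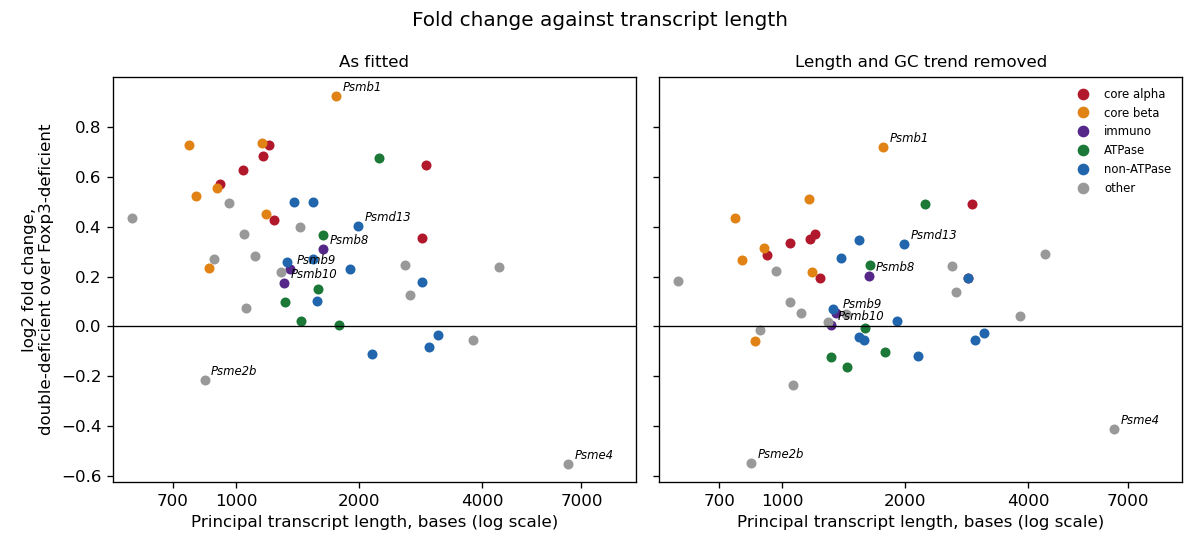
Log2 fold change between double-deficient and Foxp3-deficient cells against principal transcript length (log axis) for the 48 tested genes, as fitted (left) and with each library's length and GC trend removed (right). Shorter transcripts have higher values on the left (rho −0.402) and nearly no order remains on the right (rho −0.080), where Psmb1 stays the highest.

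Genes around the proteasome were read from a list of 31 genes of proteasome regulation and ubiquitin supply, of which 30 were tested. In double-deficient against Foxp3-deficient cells 6 were higher (20%, against 13.9% of all genes) and 3 lower (10%, against 13.3%). With the trend removed 3 were higher (10%, against 10.2%) and 1, the ubiquitin receptor Adrm1, was lower (3.33%, against 8.64%), so most of these shares lay near or below those of all genes. The list medians were 0.023 and 0.042 on the log2 scale. Ngly1, the deglycosylase that processes the transcription factor Nfe2l1, averaged 368 ± 28.9 CPM in double-deficient, 191 ± 9.27 CPM in Foxp3-deficient and 152 ± 9.22 CPM in WT cells. It was higher by 0.94 ± 0.077 over Foxp3-deficient and by 1.27 ± 0.078 over WT cells (adjusted p = 2.01e-06 and 1.22e-08). Nfe2l1 itself, which drives proteasome genes when the proteasome is inhibited, did not pass, at 141 ± 19.1 CPM in double-deficient, 149 ± 12 CPM in Foxp3-deficient and 146 ± 17.1 CPM in WT cells. Nfe2l2, the related regulator of antioxidant genes, was higher than in WT in both mutant groups, by 0.55 ± 0.094 in double-deficient and 0.69 ± 0.094 in Foxp3-deficient cells (adjusted p = 0.000521 and 9.29e-05). The lid subunit Shfm1 and Pomp, the chaperone that closes core assembly, were higher than in Foxp3-deficient cells by 0.90 ± 0.22 and 0.55 ± 0.15 (adjusted p = 0.0104 and 0.0149). Ube3c, a ubiquitin ligase that works at the proteasome, was lower by −0.31 ± 0.078 (adjusted p = 0.0107), and not with the trend removed (−0.13, adjusted p = 0.16). Over WT, 6 genes were higher (20%, against 15.8% of all genes) and 2 lower (6.67%, against 16.8%). Among the higher ones were the ubiquitin-binding factor Zfand5 at 0.60 ± 0.14 and the proteasome-bound deubiquitinase Uchl5 at 0.46 ± 0.11 (adjusted p = 0.00578 and 0.00514), the second at 0.25 with the trend removed. In Foxp3-deficient against WT cells 2 genes were higher (6.67%, against 6.99% of all genes), Nfe2l2 and Ngly1, the second by 0.33 ± 0.077 (adjusted p = 0.0082).

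Genes of MHC class I antigen processing, a list of 12, use the peptides that the immunoproteasome makes. In double-deficient against WT cells 6 were lower (50%, against 16.8% of all genes) and the other 6 did not pass, with a list median of −0.21. Among the lower ones were the peptide transporter genes Tap1 and Tap2, the loading factor Tapbp, the class I transactivator Nlrc5 and the chaperone Pdia3. With the trend removed 5 were lower (41.7%, against 13.2% of all genes), and Nlrc5 lost its call (−0.15, adjusted p = 0.207). Tap2 averaged 328 ± 22.8 CPM in double-deficient, 399 ± 30.1 CPM in Foxp3-deficient and 437 ± 26.9 CPM in WT cells. Over WT, Tap2 was lower in double-deficient cells by −0.41 ± 0.079 and Tap1 by −0.36 ± 0.089 (adjusted p = 0.00115 and 0.00621). Tap1 shares an exonic overlap with its neighbour Psmb9, which did not pass in this comparison (−0.11 ± 0.12, adjusted p = 0.503). In double-deficient against Foxp3-deficient cells 3 were higher, B2m, H2-K1 and H2-D1 (25%, against 13.9%), and 2 were lower, Tap2 and Nlrc5 (16.7%, against 13.3%). H2-D1 alone was called with the trend removed, as higher (8.33%, against 10.2%). In Foxp3-deficient against WT cells 2 were lower (16.7%, against 6.74%), among them Pdia3 by −0.26 ± 0.082 (adjusted p = 0.0487), a call that was lost without some of the libraries and with the trend removed (adjusted p = 0.0566).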

How the data were processed

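The authors deposited raw counts, whole numbers of reads per gene and library. STAR 2.5.1b, mm10 (GRCm38) and HTSeq are named in the submitters' processing notes; which HTSeq version, Gencode release and strand mode were used is not given in the sources used here. Per the labels' protocols, SMART-Seq v4 gave the cDNA, and the kit named for the library step differs between the series text and the sample protocol. Intervals between libraries rest on 4 libraries per group, and p-values measure only the spread between libraries, which may be technical, since no label ties a library to a mouse.

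In R 4.3.3, edgeR 4.0.16 filtered the counts (filterByExpr), scaled them (TMM) and tested them by its robust quasi-likelihood method in 1 model of 12 libraries and no covariate. A gene was called at a Benjamini-Hochberg adjusted p under 0.05 over all 13196 genes. The 95% intervals of fold changes come from the standard errors of that fit by a normal approximation, and are narrower than the test would give. Fits were also run on simulated data with the same spread for every gene and no outlying library, unlike these data. Their outcome is not reported here. Rows of the 3 HTSeq summary classes stayed out of library sizes. Of these, the shares of reads without a unique alignment and of reads outside genes are given with the results. Transcript lengths and GC content came from GENCODE M21 (97.5% of genes matched), and promoters from RefSeq. The length and GC trend was removed per library with natural splines of 5 degrees of freedom. Uniqueness was measured as the share of 50-base stretches of the principal transcript found in transcripts of other genes.

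The members and lists were chosen with earlier results of these data known. Values per library are given for the 3 catalytic pairs, for up to 8 called members per direction and comparison with the smallest adjusted p, and for the member with the highest mean CPM of each role. From the other lists up to 4 called genes per comparison were eligible. Nfe2l1, Pdia3, Tapbp, H2-K1, H2-D1, B2m, Nlrc5 and further members given by fold change only were named after their values were seen. Alternatives were scaling by upper quartile or relative log expression, no filter, a stricter filter, DESeq2 1.42.0, limma-voom (limma 3.58.1), a model of only the 2 groups at hand, a replicate block, trend removal, and leaving out libraries. Union exonic length for the shares, and trend removal with a library left out, were chosen after seeing the data. Some genes of the lists are not reported here.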

Additional observations from a re-analysis of the deposited data

Results flagged for a closer look

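Within groups of 4 libraries, 9 of 144 combinations of a tested member and a group had 1 library far from the other 3 (Dixon's test at the 95% level), where chance flags about 1 in 20 groups. In Foxp3-deficient cells replicate 1 was apart for 4 genes. It was low for Psmb10 at 117.1 CPM (the others at 181 to 187), for Psmc3 at 210.3 CPM (276 to 281) and for Psme1 at 173 CPM (263 to 274), and high for Psmd3 at 260.3 CPM (225 to 228). Without that library the count of members higher in double-deficient cells over Foxp3-deficient ones was 17. In double-deficient cells replicate 2 was low for Psma2 at 190.1 CPM (222 to 228) and for Psme2 at 114.5 CPM (136 to 139). Replicate 4 of that group was high for Psmd7 at 148.8 CPM (141 to 142), and replicate 5 for Psmg3 at 13.5 CPM (9.46 to 10.1). In WT cells replicate 5 was high for Psma4 at 117.1 CPM (90.5 to 91.5).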

How the results depend on the processing

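Called counts moved most with the settings. For double-deficient over Foxp3-deficient cells the 22 higher members became 14 with no low-count filter (6.46% of all genes), 14 with only the groups compared (9.6%), 13 with the trend removed (10.2%) and 10 with the trend removed and the block (8.36%), against 13.9% before. Leaving out 1 library gave 12 to 26 higher and 1 to 1 lower members there, and with the trend removed and a Foxp3-deficient library left out 4 to 17 higher (5 without replicate 1) and 1 to 2 lower, with a median of 0.078 to 0.17. Over WT, the 11 higher members became 7 with no filter (7.59% of all genes), 21 with only the groups compared (21.7%) and 21 without both Foxp3-deficient 1 and 3 (20.9%), against 15.8% before. Leaving out 1 library gave 6 to 21 higher and 0 to 2 lower, and with the trend removed and a Foxp3-deficient library left out 12 to 17 and 0 to 2. The 2 lower members over WT became 0 with no filter (7.96% of all genes), 1 with the block (13.6%), 1 with the trend removed (13.2%) and 1 with both (10.7%). In Foxp3-deficient against WT cells the 1 lower member became 2 by DESeq2 (8.15% of all genes) and 0 with the block (6.96%). Leaving out 1 library gave 0 to 0 higher and 0 to 1 lower, and 0 to 1 and 0 to 2 with the trend removed and a Foxp3-deficient library left out. Small fold changes changed sign. For Foxp3-deficient against WT, Psmb7 was −0.016 by voom, −0.013 with the block and −0.086 to 0.22 with 1 library left out. Psmb6 was −0.28 to 0.019 with 1 library left out and −0.094 to 0.057 with the trend removed as well, where Psmb10 was −0.12 to 0.0093. For double-deficient over Foxp3-deficient cells, Psmb10 was −0.054 with trend and block and −0.072 to 0.050 with the trend removed and 1 library left out. Over WT, Psmb10 was −0.0041 with the stricter filter, −0.052 with the block, −0.072 with the trend removed, −0.14 with both, −0.021 to 0.042 with 1 library left out and −0.066 to −0.063 with the trend removed as well, and Psmb8 was −0.018 with trend and block. The cause was not tested. From raw reads without length scaling, the immunoproteasome share was 75.7% in double-deficient, 79.8% in Foxp3-deficient and 81.0% in WT libraries. With 1 library left out it was 64.6 to 65.9% in double-deficient, 69.4 to 71.3% in Foxp3-deficient and 71.2 to 72.5% in WT libraries. Libraries with the same number were not taken as pairs: their deviations correlated at 0.157, 0.102, 0.0289 and 0.203 between WT and Foxp3-deficient and at −0.0524 to 0.0622 elsewhere. With the number as a block, double-deficient cells had 16 higher members and 1 lower over Foxp3-deficient cells and 10 higher over WT (11.2%, 9.72% and 12.9% of all genes). With the trend removed, alone and with the block, the median over the members was 0.16 and 0.11 for double-deficient over Foxp3-deficient cells, against 0.28 before. Over WT it was 0.11 and 0.086, against 0.21, and for Foxp3-deficient over WT cells it was 0.029 and 0.02, against −0.078. Other counts stayed within 1.5 times. Of single genes, 1136 values kept direction and side of the threshold, 200 fell short of it, 19 passed it and 22 changed sign. Psma8 and Psmb11 have too few reads to compare.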
